A study of Mus musculus with 3 samples.

Results

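The genes described here are 34 that make, take up, store and export cholesterol in the liver. They were chosen by name, as the genes whose symbol in the array's annotation equals a member of the list, and all 34 were found among the 31870 gene symbols of the array, on 45 spots that each hold a different 60-base probe. Msmo1 is written under its older symbol Sc4mol there. Fatty liver of the mouse was modelled with a high-fat diet in male wild-type C57BL/6 mice that entered the diet at 6 weeks of age, stayed on it for 16 weeks and were fasted overnight at about 22 weeks, when hepatocytes were freed from the liver with collagenase. One group had a standard diet (SD). The other groups had the high-fat diet and, after 10 weeks of it, injections into the abdomen 2 times a week for 6 weeks, either of control IgG (HFD-IgG, the IgG array) or of an antibody that blocks VLA-4 (anti-VLA-4, the antibody array), an integrin by which leukocytes attach to vessel walls. The labels list no injection on the standard diet, which leaves diet and injection inseparable between those groups, and the number of mice behind each array is not given in the labels.

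Hepatocytes build cholesterol from acetyl-CoA through mevalonate, isoprenoids, squalene and lanosterol. The enzymes are controlled together by SREBP-2, the transcription factor encoded by Srebf2. When sterol in the endoplasmic reticulum is low, the escort protein SCAP carries SREBP-2 to the Golgi to be cut and released, and when sterol is high, the INSIG proteins hold SCAP back, so that transcripts of the synthesis enzymes are widely read as a sign of how much sterol the cell senses. Surplus cholesterol is esterified by SOAT enzymes, or exported by ABC transporters whose genes are targets of the oxysterol receptors LXR.

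Each group was measured on 1 array of 1 colour, and without replicates there is no p-value, and the number of arrays limits the precision. Levels are given as the relative signal, the background-subtracted signal over the 75th percentile of all non-control spots on that array, and a level of one probe is not comparable with that of another. Differences are on the log2 scale, and the error given with them is the scanner software's own error, which was 0.20 for most genes and covers neither mice nor preparations. Comparison needed a signal well above background on either array of the pair. Between 57.3% and 66.5% of the 43020 non-control spots were well above background, and none of the 45 spots was marked as an outlier. Of the 34 genes, 32 were well above background on all 3 arrays. Npc1l1, the intestinal cholesterol importer, was not well above background on any array, and Soat1 was so on the antibody array alone.

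Markers of other cell types were measured beside those of hepatocytes. The 10 hepatocyte markers had a summed relative signal of 4270 on the standard diet, 4284 with HFD-IgG and 4081 with anti-VLA-4. The summed signal of 12 Kupffer cell and macrophage markers was 10.7, 69.7 and 53.1 in the same order, that of 10 sinusoidal endothelial markers 15.2, 57.1 and 34.5, and that of 10 stellate cell and fibroblast markers 1.77, 19.5 and 9.61. All 12 macrophage markers, 8 of 10 endothelial markers and 9 of 10 stellate markers exceeded the standard-diet array at least 2-fold on HFD-IgG. The share of all genes was 20.4%, or 11.1% with quantile normalization. On the standard-diet array the macrophage markers Cd68 and Timd4 and 8 of the 10 stellate markers were not well above background. Their folds are lower bounds. Neutrophil and monocyte markers, 7 of 8 on the array, summed to 0.789, 1.57 and 3.25, with a median of 0.77 for anti-VLA-4 over HFD-IgG, or 0 with normexp background correction. The 6 T and NK cell markers summed to 3.98, 3.42 and 3.71. The 5 cholangiocyte markers summed to 0.481, 0.83 and 0.678. Their median for anti-VLA-4 over HFD-IgG was -1.46, or -0.53 with quantile normalization and -0.49 with normexp background correction. Krt19, Krt7 and Epcam among them were not well above background on the antibody array. The 3 erythroid markers summed to 10.2, 13.7 and 15.4. Lists that rest on few measured genes were those of B cells, with 0, 1 and 2 of 4 markers above background, and adipocytes, with 1, 1 and 0 of 4. The part of these cells in the values below was not tested, and fewer hepatocytes cannot be told apart from less RNA per hepatocyte.

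Promoters of the genes are shown because the synthesis enzymes are known to be controlled together, with SREBP-2 acting beside factors that bind CCAAT. RefSeq sequences on build GRCm38.p6 were matched by symbol for 27 of the 34 genes and searched over the 250 bases before the annotated start, on both strands. The letters CCAAT were found in at least 1 entry of 22 of the 27, against 37.5% of 27025 genes with a promoter and 40.0% of the 10201 of them measured well above background on all 3 arrays. Of the 18 synthesis enzymes 15 had a promoter sequence, and Fdps, Fdft1 and Sqle had none. Among those 15 enzymes 14 held CCAAT, and the enzyme without it was Acat2. The letters GGGCGG were found in 20 of the 27, against 35.4% of all genes and 59.0% of those measured. TCACNCCAC, a strict form of the sterol regulatory element, was found in Hmgcs1 alone, against 1.22% of all genes and 1.29% of those measured. CACGTG was found in 6 of the 27, against 6.86% of all genes and 9.62% of those measured. A match is a description of the letters and does not show binding, and no match to one motif overlapped a match to another in the 35 promoter entries of the 27 genes. Below are the 180 bases before the start of 5 enzymes that held CCAAT and of Acat2, with CCAAT (or ATTGG, its reverse) and TCACNCCAC in capitals, 5′ to 3′ on the strand of the gene.
Hmgcs1, chr13:119690171-119690350, plus strand: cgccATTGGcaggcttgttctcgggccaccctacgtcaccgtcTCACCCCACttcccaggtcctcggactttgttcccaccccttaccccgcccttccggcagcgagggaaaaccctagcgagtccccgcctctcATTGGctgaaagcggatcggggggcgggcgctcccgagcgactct
Idi1, chr13:8885426-8885605, plus strand: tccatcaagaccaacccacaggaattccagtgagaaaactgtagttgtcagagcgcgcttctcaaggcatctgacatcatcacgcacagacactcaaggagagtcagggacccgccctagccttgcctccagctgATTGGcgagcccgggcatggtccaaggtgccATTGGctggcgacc
Cyp51, chr5:4104698-4104877, minus strand: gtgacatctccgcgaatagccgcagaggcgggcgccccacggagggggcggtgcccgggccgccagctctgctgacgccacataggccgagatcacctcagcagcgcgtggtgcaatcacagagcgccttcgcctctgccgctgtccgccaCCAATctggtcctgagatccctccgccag
Msmo1, chr8:64733579-64733758, minus strand: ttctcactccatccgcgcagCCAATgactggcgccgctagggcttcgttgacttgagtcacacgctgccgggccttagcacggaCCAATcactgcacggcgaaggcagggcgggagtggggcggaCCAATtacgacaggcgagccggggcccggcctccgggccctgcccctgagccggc
Hsd17b7, chr1:169969206-169969385, minus strand: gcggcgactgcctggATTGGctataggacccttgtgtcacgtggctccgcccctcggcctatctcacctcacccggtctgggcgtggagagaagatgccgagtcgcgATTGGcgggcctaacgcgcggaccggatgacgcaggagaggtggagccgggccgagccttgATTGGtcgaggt
Acat2, chr17:12960726-12960905, minus strand: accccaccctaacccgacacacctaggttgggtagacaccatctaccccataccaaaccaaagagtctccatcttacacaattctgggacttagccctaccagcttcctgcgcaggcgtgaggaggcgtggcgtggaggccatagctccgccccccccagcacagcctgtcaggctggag

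Hmgcs1 has 2 CCAAT matches and 1 TCACNCCAC match in its stretch, Idi1 has 2 CCAAT matches, Cyp51 has 1, and Msmo1 and Hsd17b7 have 3 each. Acat2 has neither in its stretch.

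Between HFD-IgG and the standard diet 4 cholesterol genes were lower by 2-fold or more, and 1 was higher. Of the 32 genes compared, 24 lay below 0 and 8 above, with a median log2 difference of -0.24, while 10214 of all 22002 genes compared lay below 0, with a median of 0.04. Among the brighter genes, those above the 75th percentile on either array, 16 of 23 cholesterol genes lay below 0 (median -0.22) and so did 5413 of 8647 genes (median -0.10), so the share below 0 was near that of bright genes in general. At least 2-fold lower were 4 genes, Sqle, Hsd17b7, Idi1 and Insig2, and the share of all genes called lower was 2.41%. At least 2-fold higher was 1 gene, Acat2, against 20.4% of all genes. At 1.5-fold, 8 were lower and 1 higher, against 7.79% and 27.9% of all genes. Of the 23 brighter cholesterol genes 3 were lower by 2-fold and 1 higher, against 1.93% and 4.27% of all bright genes. With normexp background correction, which models the background of each array again from the raw signals, the median of all genes was 0.46 and that of the cholesterol genes was -0.58, beside -0.82 for the hepatocyte markers. In that setting Mvd, not Acat2, was the 1 gene at least 2-fold higher, where 40.4% of all genes were. Hmgcs1, Hsd17b7, Idi1, Insig2, Msmo1 and Tm7sf2 were lower, where 3.93% of all genes were. Quantile normalization put 7 of the 32 lower by 2-fold and 1 higher, where 12.2% and 11.1% of all genes were, so that the balance of higher and lower genes over the whole array depends on the scaling.

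On the antibody array most of the same genes lay above their HFD-IgG level. Of 33 genes compared, 28 lay above 0 and 4 below, and Soat1 was counted at 0 because its bound gave no fold. The median was 0.39, against -0.06 over all 22589 genes, of which 9579 lay above 0. Of the brighter genes 19 of 23 lay above 0 (median 0.29), and 4222 of 8562 over the array. At least 2-fold higher were Sqle and Msmo1, against 1.9% of all genes, and 0 of the 33 were at least 2-fold lower, against 16.5%. At least 1.5-fold higher were 10 of the 33, against 7.11% of all genes, and 0 were that much lower, against 23.3%. Among the brighter genes 1 of 23 was at least 2-fold higher and 0 lower, where all such genes gave 0.806% and 1.3%. With quantile normalization 5 of the 33 were at least 2-fold higher and 0 lower, where 10.9% and 9.15% of all genes were. This comparison shares the IgG array with the one before, so a low signal on that array enters both with opposite sign. SD and HFD-IgG were hybridised on 1 slide and anti-VLA-4 on another, and the effects of slide and antibody cannot be told apart.

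Against the standard diet, the antibody array had 23 of 33 cholesterol genes above 0 and 10 below, with a median of 0.19 against 0 over all 20334 genes, of which 10143 lay above 0. Acat2 was the 1 gene at least 2-fold higher, against 7.98% of all genes, and Insig2 the 1 at least 2-fold lower, against 3.39%. Among the 23 brighter genes the counts were again 1 and 1, against 3.34% and 1.55%. At 1.5-fold 4 were higher and 3 lower, against 16.3% and 9.42% of all genes. With normexp background correction the median was -0.07, of opposite sign, while that of all genes was 0.27. Of the 32 genes well above background everywhere, 22 had their lowest signal on the IgG array, 7 on the standard-diet array and 3 on the antibody array. Over all 17036 genes well above background everywhere, the shares were 34.4% for HFD-IgG, 31.9% for standard diet and 33.7% for anti-VLA-4, and among the 8753 brighter ones 35.8% were lowest on HFD-IgG.

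**Figure D1:**
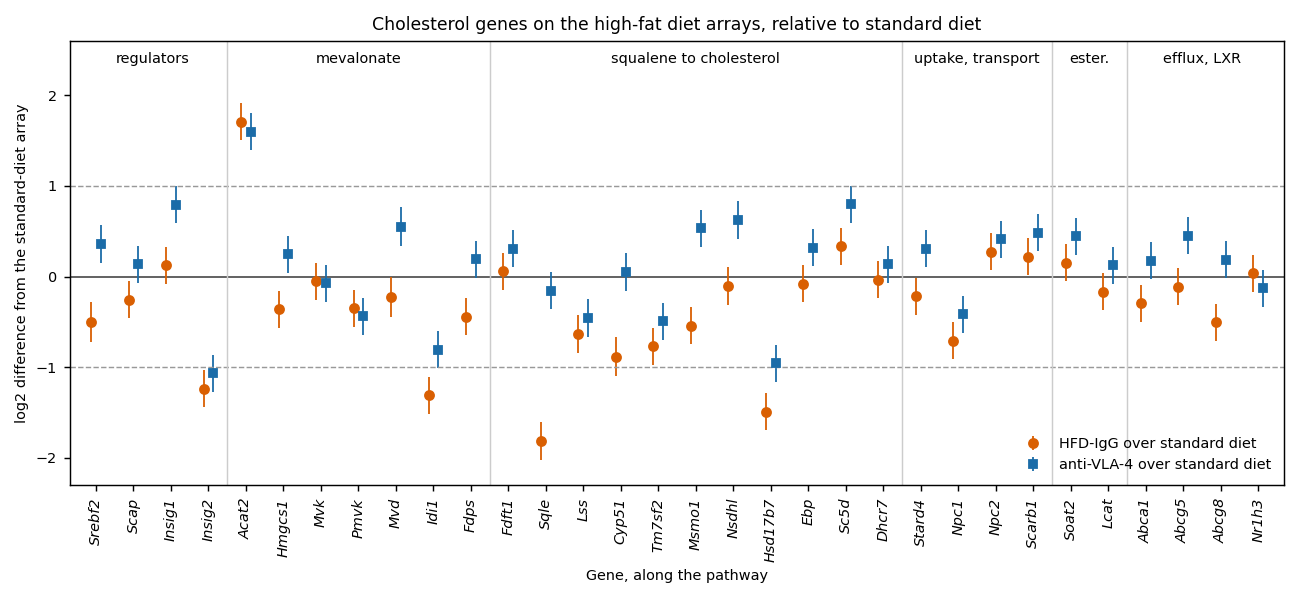
Log2 difference from the standard-diet array (vertical axis) of 32 cholesterol genes in pathway order, for HFD-IgG (circles) and anti-VLA-4 (squares), 1 array each. Bars are the scanner error and dashed lines mark 2-fold; Sqle lies at -1.81 on HFD-IgG and -0.16 on anti-VLA-4, while Insig2 stays at -1.24 and -1.06 and Acat2 at 1.71 and 1.59.

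The regulators differed from one another across the arrays. The relative signal of Srebf2 was 0.225 with the standard diet, 0.159 with HFD-IgG and 0.287 with anti-VLA-4. It was thus lowest on HFD-IgG and 1.80-fold higher with anti-VLA-4 (log2 difference 0.85, error 0.22), but with normexp background correction this difference was -0.10 and that of HFD-IgG over standard diet went from -0.50 to 0.83. Its second, dimmer probe read 0.0288, 0.0492 and 0.0529 and gave 0.77 for HFD-IgG over standard diet and 0.11 for anti-VLA-4 over HFD-IgG. The direction on the high-fat diet therefore differed between the probes, which lie at chr15:82034765-82034824 and chr15:82030068-82030127 on build mm9. Their first 30 bases are shown to identify them, from the brighter and the dimmer probe in turn.
Srebf2 brighter probe: aactaggtctttgcaccagagagcattttg
Srebf2 dimmer probe: atccagctgttcacctgtgacctgctactg

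Scap, the sterol-sensing escort of SREBP-2, read 22.7, 19.0 and 24.9 on the standard-diet, HFD-IgG and antibody arrays. It differed by no more than 1.31-fold in any comparison, anti-VLA-4 being higher than HFD-IgG by 0.39 on the log2 scale. HFD-IgG over standard diet was -0.26 for Scap, or -0.88 with normexp background correction, which gave 0.56 for anti-VLA-4 over HFD-IgG. Insig1, itself a target of SREBP-2, read 0.529, 0.577 and 0.918. Standard diet and HFD-IgG were within the scanner error of each other, or 0.315 apart with normexp background correction. Insig1 was higher on the antibody array by 1.59-fold over HFD-IgG and 1.74-fold over standard diet. On the log2 scale these differences were 0.67 and 0.79, or 0.25 and 0.57 with normexp background correction.

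Insig2, the INSIG gene that SREBP-2 does not induce and that has a liver transcript repressed by insulin, had another order than Insig1. It read 64.4 on the standard-diet array, 27.3 on the IgG array and 30.8 on the antibody array (chr1:123201085-123201144, mm9). Both high-fat diet arrays were lower than the standard-diet array, by 2.36-fold (log2 difference -1.24) and 2.09-fold (-1.06). They differed from each other by 0.17, within the error of 0.20, or by 0.46 with normexp background correction. The second probe read 24.8, 9.0 and 9.36, with differences from standard diet of -1.47 and -1.41. The direction held in both comparisons with quantile normalization, cyclic loess, the median of bright probes, normexp background correction and the mean over probes. The differences ran from -1.96 to -1.15 for HFD-IgG and from -1.50 to -0.95 for anti-VLA-4. The other alternatives leave the value of the probe used as it is. On the antibody array 2 alternatives, quantile normalization and cyclic loess, put it just under 2-fold.

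At the head of the mevalonate branch, Acat2 was the 1 enzyme at least 2-fold higher on the high-fat diet in the values reported. It encodes the cytosolic thiolase that joins acetyl-CoA units, not the sterol acyltransferase of the same protein abbreviation, which is Soat2. Acat2 read 14.2 on standard diet, 46.2 on HFD-IgG and 42.8 on anti-VLA-4 (chr17:13136482-13136541, mm9). It was 3.26-fold higher on HFD-IgG than on standard diet (log2 difference 1.71) and 3.02-fold higher on anti-VLA-4, while the high-fat diet arrays differed by -0.11, within the error. With normexp background correction the first difference was 0.88, below 2-fold, in the same direction. Acat3, a gene of similar sequence that RefSeq places beside Acat2 on chromosome 17, read 13.6, 24.3 and 24.4 by its own probe, so 0.84 above standard diet on the log2 scale on both high-fat diet arrays. For HFD-IgG over standard diet the Acat3 difference was 0.12 with normexp background correction. How far the probes of these paralogs read each other's transcript was not tested, and the Acat2 value is uncertain between the copies.

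Hmgcs1, encoding the synthase that makes HMG-CoA, read 16.4, 12.7 and 19.4 on the 3 arrays in the same order. It was 1.29-fold lower on HFD-IgG than on standard diet and 1.53-fold higher on anti-VLA-4 than on HFD-IgG, directions that held with normexp background correction. Its probe is annotated on an unplaced sequence of chromosome 13 in build mm9. Mvk, mevalonate kinase, read 2.30, 2.21 and 2.18, which is within the scanner error in every comparison, though with normexp background correction it was -0.49 from standard diet on HFD-IgG and -0.38 on anti-VLA-4. Its dimmer probe gave 0.35 for HFD-IgG over standard diet and -0.28 for anti-VLA-4 over HFD-IgG. Pmvk, the following kinase, read 9.15, 7.17 and 6.77. Pmvk was lower on both high-fat diet arrays, by 0.35 and 0.44 on the log2 scale below standard diet by the probe used and by 0.50 and 0.48 by its second probe. Anti-VLA-4 over HFD-IgG was -0.02 for Mvk and -0.08 for Pmvk by the probe used, and 0.11 and 0.08 with normexp background correction.

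Mvd, the decarboxylase that forms isopentenyl diphosphate, read 0.227, 0.195 and 0.333. It was 1.71-fold higher on anti-VLA-4 than on HFD-IgG (log2 difference 0.77), though -0.01 with normexp background correction. HFD-IgG over standard diet was -0.22, or 1.04 with that correction, and anti-VLA-4 over standard diet 0.55, or 1.03. Idi1, the isomerase that makes the second isoprenoid unit, read 3.65, 1.47 and 2.08 (chr13:8891524-8891583, mm9). It was 2.48-fold lower on HFD-IgG than on standard diet (-1.31), and on anti-VLA-4 it was 1.42-fold above HFD-IgG yet still 1.75-fold below standard diet. Fdps, which joins isoprenoids to farnesyl diphosphate, read 4.35, 3.21 and 4.97, lowest on HFD-IgG and 1.55-fold higher on anti-VLA-4. Of the 7 genes of this branch, 6 lay below 0 on HFD-IgG over standard diet (median -0.35), and 4 lay above and 3 below 0 on anti-VLA-4 over HFD-IgG (median 0.50).

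In the branch from squalene to cholesterol, Sqle encodes squalene epoxidase, an oxygen-using and often rate-limiting step of the pathway. It read 0.958 on standard diet, 0.272 on HFD-IgG and 0.859 on anti-VLA-4 (chr15:59162688-59162747, mm9). The IgG array stood alone, 3.52-fold below standard diet (log2 difference -1.81, error 0.21) and 3.16-fold below anti-VLA-4 (1.66), whereas anti-VLA-4 and standard diet differed by -0.16, within the error. With normexp background correction both differences kept their direction but were under 2-fold, at -0.76 and 0.64. One probe measures Sqle, and its first 30 bases are shown because its differences rest on that probe alone.
Sqle probe: tgatttcagtatttggggtgactcattggg

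Fdft1, squalene synthase, makes its substrate. Its brighter probe read 2.10, 2.18 and 2.59 and its dimmer probe passed background with HFD-IgG only, at 0.0401, with 0.00890 on standard diet and 0.0113 on anti-VLA-4. By the brighter probe HFD-IgG and standard diet differed by 0.06, within the error, and anti-VLA-4 was 0.25 above HFD-IgG. With the mean over both probes these differences were 1.11 and -0.79, so that Fdft1 was then at least 2-fold higher on HFD-IgG than on standard diet.

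Cyp51 and Msmo1 remove the methyl groups of lanosterol, as lanosterol demethylase and sterol C4-methyl oxidase. Cyp51 read 0.237, 0.129 and 0.245, lowest on HFD-IgG by 1.84-fold against standard diet and 1.90-fold against anti-VLA-4, and standard diet and anti-VLA-4 differed by 0.05. Quantile normalization gave -1.49 and 1.40 for the first 2 comparisons and normexp background correction gave 0.59 and -0.06. Msmo1 read 6.01, 4.12 and 8.70 (chr8:67196982-67197041, mm9). It was 1.46-fold lower on HFD-IgG than on standard diet and 2.11-fold higher on anti-VLA-4 than on HFD-IgG (log2 difference 1.08, error 0.20). The last difference was at least 2-fold, between 1.06 and 1.09, with quantile normalization, cyclic loess, the median of bright probes and normexp background correction. The other alternatives leave the value of a gene with 1 probe as it is.

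Hsd17b7, a sterol 3-ketoreductase, was low on both high-fat diet arrays. It read 2.20 on standard diet, 0.782 on HFD-IgG and 1.14 on anti-VLA-4 by 1 probe and 1.64, 0.632 and 0.921 by the other, at chr1:171883182-171883241 and chr1:171880203-171880262 on mm9. HFD-IgG was 2.81-fold below standard diet by the first probe (log2 difference -1.49) and by 1.37 on the log2 scale by the second. It stayed at least 2-fold lower with quantile normalization, cyclic loess, the median of bright probes, normexp background correction and the mean over probes. Anti-VLA-4 lay 1.45-fold above HFD-IgG and 1.94-fold below standard diet. Tm7sf2, a sterol C14-reductase, had the same order at a smaller size, with 32.2, 18.9 and 22.9 by the probe used. It was 1.70-fold below standard diet on HFD-IgG and 1.41-fold below it on anti-VLA-4, and its second probe gave differences of -0.71 and -0.43.

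Lss, lanosterol synthase, read 0.283, 0.182 and 0.206, so both high-fat diet arrays were lower than standard diet, by 1.55-fold and 1.37-fold, although normexp background correction turned these differences to 0.42 and 0.18. Nsdhl, a sterol dehydrogenase of the C4-demethylation complex, read 0.296, 0.276 and 0.456. Standard diet and HFD-IgG were within the error of each other, or 0.86 apart with normexp background correction. Nsdhl was 1.65-fold higher on anti-VLA-4 than on HFD-IgG. That difference was 0.73 on the log2 scale with the probe used, 0.30 with the dimmer one and 0.09 with normexp background correction. Sc5d, the lathosterol oxidase, read 18.4, 23.2 and 32.0. Anti-VLA-4 was 1.74-fold above standard diet for Sc5d (log2 difference 0.80), or 0.21 with normexp background correction. HFD-IgG was 0.33 above standard diet on the log2 scale, or -0.46 with that correction. Ebp, the sterol isomerase, and Dhcr7, the last reductase, differed by at most 1.31-fold and 1.12-fold in any comparison. Under normexp Ebp was at -0.73 for HFD-IgG over standard diet and 0.69 for anti-VLA-4 over HFD-IgG, and Dhcr7 was above standard diet by 0.42 and 0.47 on the high-fat diet arrays. Of the 11 genes of this branch, 9 lay below 0 on HFD-IgG over standard diet (median -0.54) and 11 above 0 on anti-VLA-4 over HFD-IgG (median 0.46). Of the latter 9 were above 0 beyond the scanner error, as were 5002 of all 22589 genes. The count above 0 depends on the processing. Cyp51 was at -0.06 and Lss at -0.24 with normexp background correction, and Fdft1 at -0.79 with the mean over probes.

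**Figure D2:**
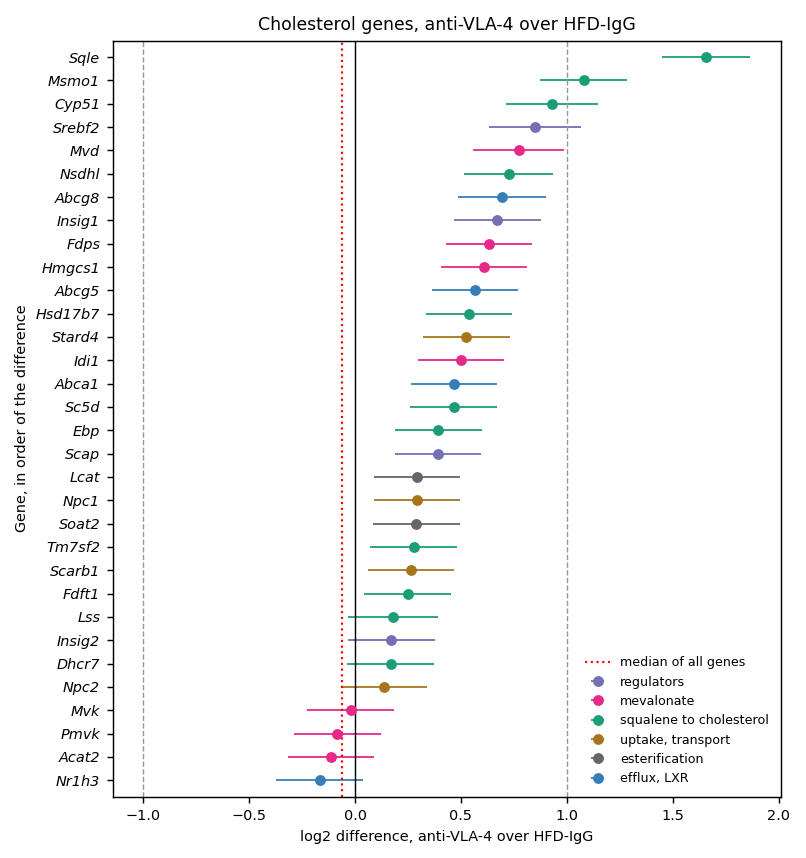
Log2 difference of anti-VLA-4 over HFD-IgG (horizontal axis) for the 32 cholesterol genes well above background on both arrays, ordered by size and coloured by role, 1 array each. Bars are the scanner error, dashed lines mark 2-fold and the dotted line the median of all genes (-0.06). Of these genes 28 lie above 0, with Sqle at 1.66 and Msmo1 at 1.08. However, Cyp51, Srebf2, Mvd and Lss fall below 0 with normexp background correction and Fdft1 with the mean over probes. Under normexp background correction Nsdhl is at 0.09, Abcg8 at 0.22 and Insig1 at 0.25.

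Npc1, the lysosomal membrane protein that hands cholesterol out of lysosomes, read 2.75, 1.68 and 2.06, which is 1.63-fold lower on HFD-IgG and 1.33-fold lower on anti-VLA-4 than on standard diet. Its soluble partner Npc2 read 4.01, 4.85 and 5.34. The partners thus lay on opposite sides of the standard diet, although with normexp background correction Npc2 was at -0.38 for HFD-IgG over standard diet and at -0.07 for anti-VLA-4 over standard diet. Npc2 is a gene of macrophages as well, whose markers were higher on both high-fat diet arrays, and their part in its value was not tested.

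Stard4, a cytosolic sterol carrier and SREBP-2 target, read 1.36, 1.17 and 1.68, and was 1.44-fold higher on anti-VLA-4 than on HFD-IgG. Its dimmer probe gave 0.44 for that difference against 0.53, and 0.32 against -0.22 for HFD-IgG over standard diet. Scarb1, the receptor that takes up cholesteryl ester from HDL, read 10.8, 12.5 and 15, and was 1.40-fold higher on anti-VLA-4 than on standard diet, or -0.10 on the log2 scale with normexp background correction. Of the 4 genes of this group that were compared, 0 were at least 2-fold different in any comparison.

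Among the genes of esterification, Soat2, the acyltransferase of hepatocytes, read 5.35, 5.95 and 7.27. It was 1.22-fold higher on anti-VLA-4 than on HFD-IgG and HFD-IgG was within the scanner error of standard diet, or -0.45 from it with normexp background correction. Lcat, which hepatocytes secrete to esterify cholesterol in plasma, read 20.2, 18 and 22, with no difference above 1.23-fold, though with normexp background correction HFD-IgG over standard diet was -0.74 and anti-VLA-4 over HFD-IgG 0.43. Soat1, the acyltransferase of macrophages, read 0.00662 on standard diet, 0.0277 on HFD-IgG and 0.0273 on anti-VLA-4. It was well above background with anti-VLA-4 only, and there at least 1.06-fold above standard diet, while the lowest signal well above background was 0.0257, 0.0315 and 0.0224 on the 3 arrays.

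Of the 4 efflux and LXR genes, 3 had their lowest signal on HFD-IgG. Abcg5 and Abcg8 encode the subunits of the transporter that pumps sterols into bile and lie beside each other on chromosome 17. Abcg5 read 16.7, 15.4 and 22.8, and Abcg8 read 0.562, 0.396 and 0.640. Anti-VLA-4 was above HFD-IgG by 1.48-fold for Abcg5 (log2 difference 0.57) and 1.62-fold for Abcg8 (0.69). With normexp background correction these differences were 0.82 and 0.22. For HFD-IgG over standard diet Abcg5 was within the error at -0.11, or -0.67 with that correction. Abcg8 was at -0.51 in this comparison, or 0.04 with normexp background correction. Abca1, which loads cholesterol onto apolipoprotein A-I to form HDL, read 5.31, 4.33 and 5.98 and was 1.38-fold higher on anti-VLA-4 than on HFD-IgG. Nr1h3, which encodes LXR-alpha itself, read 23.2, 23.8 and 21.2 and stayed within the scanner error in every comparison, by both of its probes. Under normexp Nr1h3 was -0.71 from standard diet on HFD-IgG and -0.70 on anti-VLA-4.

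**Figure D3:**
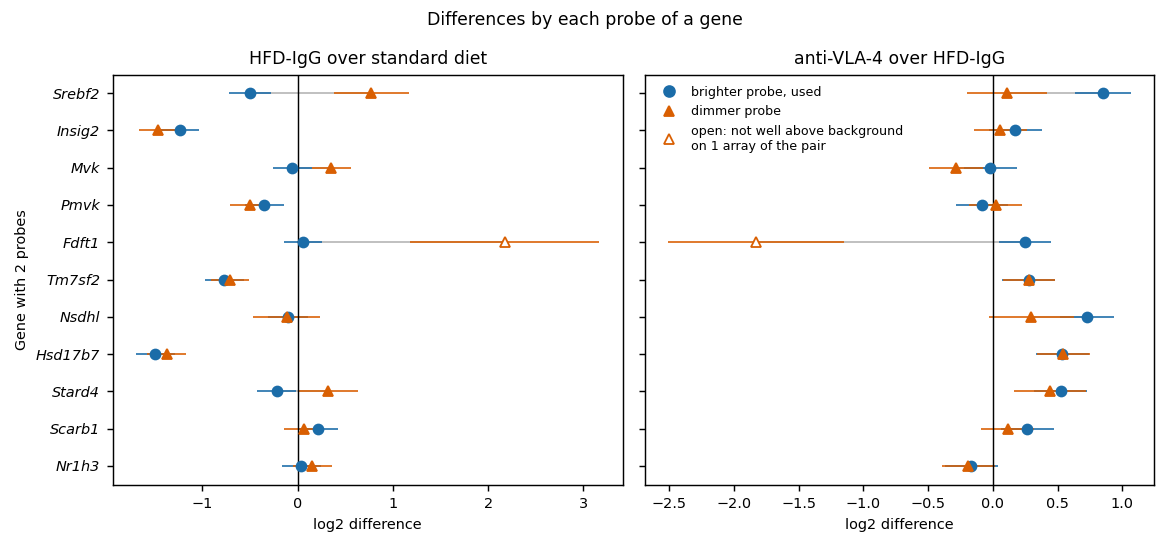
Log2 differences (horizontal axes) of the 11 cholesterol genes with 2 probes, for HFD-IgG over standard diet (left) and anti-VLA-4 over HFD-IgG (right), 1 array per group. Circles are the brighter probe, used in the text, triangles the dimmer one, open symbols a probe not well above background on 1 array of the pair, and bars the scanner error; both probes of Insig2, Hsd17b7 and Tm7sf2 lie together, while those of Srebf2 and Fdft1 lie apart.

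A second probe was present for 11 of the genes. Between HFD-IgG and standard diet both probes of a gene had the same sign for 8 of 11, between anti-VLA-4 and HFD-IgG for 9 of 11, and between anti-VLA-4 and standard diet for 9 of 10. The median gap between the probes of a gene was 0.16, 0.12 and 0.22 on the log2 scale in these comparisons. Opposite directions were found for Srebf2, Mvk and Stard4 in the first, Pmvk and Fdft1 in the second and Mvk in the third. The widest gap, 2.12, was that of Fdft1.

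A further list of sterol genes outside the 34 was described in the same way, and 39 of its 40 genes were on the array. On HFD-IgG over standard diet 4 of 38 exceeded 2-fold upward and 3 downward, with a median of -0.11, where 20.4% and 2.41% of all genes did. The higher ones were Mylip, which marks lipoprotein receptors for degradation, at 6.36-fold, the exporter gene Abcg1 at 4.6-fold, Srebf1, encoding SREBP-1, at 3.31-fold and Gramd1b, a sterol carrier between membranes, at least 5.19-fold. Mylip, Abcg1 and Srebf1 are known LXR targets. The LXR targets Abca1, Abcg5 and Abcg8, which are among the 34, were not higher in this comparison. Abca1 was 1.23-fold lower, Abcg5 was at -0.11, within the scanner error, and Abcg8 was at -0.51, or 0.04 with normexp background correction. Abcg1 is also a gene of macrophages, whose summed markers were 10.7, 69.7 and 53.1 on the 3 arrays. The part of macrophages in the values of Abcg1, Mylip and Srebf1 was not tested. The lower ones were Nceh1 at 2.12-fold, a hydrolase of cholesteryl ester, and the oxysterol hydroxylases Cyp27a1 at 2.27-fold and Cyp7b1 at 2.25-fold.

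With anti-VLA-4 over HFD-IgG, these other sterol genes gave 0 of 38 higher by 2-fold and 2 lower, Nceh1 at 2.05-fold and Gramd1b at 3.49-fold, with a median of 0.15, where the shares of all genes were 1.9% and 16.5%. Srebf1 read 0.273, 0.904 and 1.03, higher on both high-fat diet arrays than on standard diet. Nceh1 read 8.98, 4.23 and 2.06, a step down on each array. Against standard diet, anti-VLA-4 had 4 of 38 at least 2-fold higher, which were Mylip, Abcg1, Srebf1 and Gramd1c, and 1 lower, Nceh1 at 4.35-fold, where the shares of all genes were 7.98% and 3.39%. The direction of each difference named for these genes held under quantile normalization, cyclic loess, the median of bright probes and normexp background correction.

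**Figure D4:**
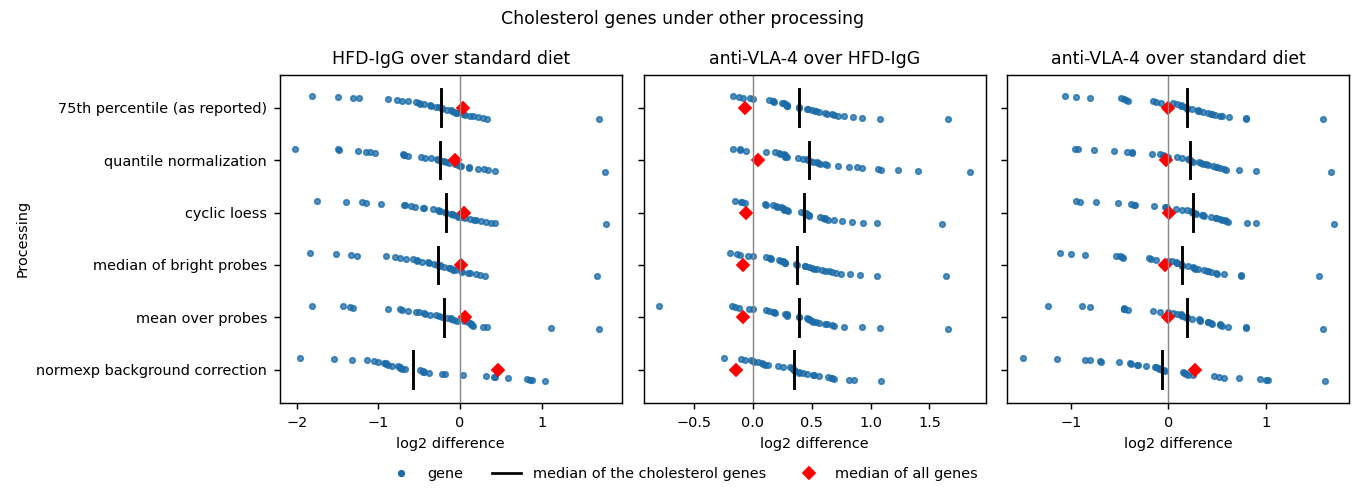
Log2 differences (horizontal axes) of the cholesterol genes under 6 ways of processing the arrays (rows), for the 3 comparisons (panels), 1 array per group. Points are genes, black bars their median and red diamonds the median of all genes; the cholesterol median lies below that of all genes in every row of the left panel and above it in every row of the middle panel, and in the right panel it is above except with normexp background correction.

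With normexp background correction the sign against standard diet also turned on the antibody array for Hmgcs1 (0.25 to -0.14), Fdps (0.19 to -0.23), Msmo1 (0.53 to -0.05), Ebp (0.32 to -0.04), Scap (0.14 to -0.32), Abca1 (0.17 to -0.39), Lcat (0.13 to -0.31) and Soat2 (0.44 to -0.10). For anti-VLA-4 over HFD-IgG the cholesterol median minus the median of all genes was 0.46 in the values reported, 0.43 with quantile normalization, 0.50 with cyclic loess and 0.49 with normexp background correction. For HFD-IgG over standard diet it was -0.28, -0.19, -0.23 and -1.04. The number of genes with their lowest signal on the IgG array was 22 of 32 in the values reported, between 20 and 23 of 32 under 5 other ways of processing and 14 of 23 among the genes above the 75th percentile. The probes of the 34 genes held from 35% to 63.3% purines, with a median of 50%, as over all genes.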

How the data were processed

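RNA from hepatocytes of 3 groups was hybridised to 3 Cy3 arrays, 1 for each group. The submitters' processing notes name Agilent's Feature Extraction software, version 11.0.1.1, for the deposited spot intensities. Per the file headers, its processed signal had background subtracted and was detrended, and its quality flags (other values) mark spots well above background. The authors' deposited value table gives, as a linear ratio, the processed signal over the 75th percentile for 23206 spots (medians 0.787, 0.796 and 0.81; largest deviation 2e-08). Unmatched sample columns numbered 0. Probe coordinates are on mm9, per the file headers.

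Here log2 signals were centred on the 75th percentile of 43020 non-control spots, an intensity of 574, 500.3 and 514 on the SD, IgG and antibody arrays. Outlier spots were dropped, repeat spots averaged, and genes given the probe with the highest mean. RefSeq accessions named 66.1% of 39395 probes and the array's own symbols the rest. Folds involving a dim array are lower bounds, taken against whichever is higher, its lowest signal well above background or the probe itself. The steps were tested on arrays simulated from the standard-diet array with known changes and the scanner error alone. That test does not cover differences between mice, preparations or slides. Named genes were the members by role, and other sterol genes at least 2-fold different. Members and lists were chosen with earlier results of these data known. Alternatives covered scaling (quantile, cyclic loess, median of bright probes), normexp with offset 50, the mean over probes, filters, 1.5-fold, probes of at most 50% purines and the deposited table. Software comprised limma 3.58.1 in R 4.3.3, and Python 3.11.15 with numpy 2.4.6, pandas 2.3.3 and matplotlib 3.10.9.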

Additional observations from a re-analysis of the deposited data

How the results depend on the processing

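No replicate could be left out, and no paired analysis was possible because each group has 1 array. The cause of the changes below was not tested. For HFD-IgG over standard diet the median was -0.18 with cyclic loess, -0.58 with normexp background correction and -0.19 with the mean over probes. The count at least 2-fold higher was 2 with the mean over probes and 2 with no filter on dim probes. Over all genes the shares were 20.3% and 23.4%. The count lower was 8 at 1.5-fold, 7 with quantile normalization and 2 of 16 with probes of at most 50% purines. In the same order 7.79%, 12.2% and 2.95% of all genes were lower. For anti-VLA-4 over HFD-IgG the median was 0.47 with quantile normalization, 0.44 with cyclic loess, 0.35 with normexp background correction and 0.29 above the 75th percentile. The count higher was 10 at 1.5-fold and 5 with quantile normalization, where 7.11% and 10.9% of all genes were. It was 1 of 33 with normexp background correction, 1 of 23 above the 75th percentile and 1 of 16 with probes of at most 50% purines. All genes gave 0.302%, 0.806% and 2.72% there. The count lower was 0 in every alternative, while the share of all genes was 0.667% with normexp background correction and 23.3% at 1.5-fold. For anti-VLA-4 over standard diet the median was 0.25 with cyclic loess, 0.14 with the median of bright probes, 0.24 with probes of at most 50% purines and -0.069 with normexp background correction, which reversed it. The count higher was 4 at 1.5-fold, 2 with no filter and 3 under normexp background correction. Over all genes 16.3%, 10.7% and 30.1% were higher. The count lower was 3 at 1.5-fold, 0 with quantile normalization and 0 with cyclic loess, where 9.42%, 4.24% and 4.09% of all genes were. It was 2 with the median of bright probes and 2 with normexp background correction, where 3.69% and 2.08% were. The number of genes lowest on the HFD-IgG array, examined under alternatives chosen after seeing the data, was 14 of 23 above the 75th percentile. Of single-gene differences under normexp background correction, 71 moved by more than the scanner error and 27 did not, and none at least 2-fold changed direction in any alternative. Quantile normalization moved 10 of 98. Over all genes, the counts at least 2-fold higher and lower for HFD-IgG over standard diet were 4498 and 531, or 89.4% up, and 2431 and 2687, or 47.5% up, with quantile normalization. For anti-VLA-4 over HFD-IgG 10.3% pointed up, and 54.4% with quantile normalization and 31.2% with normexp background correction. For anti-VLA-4 over standard diet 70.2% pointed up, and 57.3% and 93.5% in these settings. Signal over background limits the dim genes, such as Srebf2, Cyp51, Mvd and Lss, and Soat1 and Npc1l1 most.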
